A study of Mus musculus with 16 samples.

Results

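Levels of 10 genes that handle zinc and iron were followed through 16 RNA-seq libraries of a mouse kidney cell line. They are the metallothionein genes Mt1 and Mt2, the zinc transporters Slc30a1, Slc39a10 and Slc39a14, the transferrin receptor gene Tfrc, the ferritin subunit genes Fth1 and Ftl1, the iron exporter Slc40a1 and the iron importer Slc11a2. The genes were chosen by name, with earlier results of these data known. Each symbol was matched to 1 Ensembl identifier among the 55536 genes of the count table. All 10 passed the filter on low counts, as did 15316 genes in all. The cells are an inner medullary collecting duct line in which doxycycline (DOX) deletes Pkd2, the gene of polycystin-2, which is mutated in polycystic kidney disease. They were cultured on permeable supports for 10 days at passage 4 or passage 7, and the treated cells received 2 ug/mL DOX during 6 of those days. This gives 4 groups of 4 libraries: passage 4 without DOX, passage 4 with DOX, passage 7 without DOX and passage 7 with DOX. The genotype label reads wild type without DOX and knockout with it, and all 16 libraries come from the 1 inducible line; cells without the inducible deletion were not analysed here. The effect of DOX itself and that of losing Pkd2 therefore cannot be told apart in any value given here. Whether the 4 replicates were separate cultures is not labelled, and p-values therefore cover the spread among libraries, which may be technical.

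Total counts ran from 9937504 to 17188295 per library. The targeted gene followed the DOX label: Pkd2 stood at 140 ± 4.24 CPM (counts scaled to library size by TMM; SD, n = 4) without DOX and 52.7 ± 3.98 with it at passage 4, and at 185 ± 1.4 and 56.7 ± 8.07 at passage 7. An exact 2-sided permutation test gave p = 0.0286 at both passages, and 70 arrangements allow no smaller value. The libraries of every group also fell into 2 sets, replicates 1 and 2 against replicates 3 and 4, and the labels do not say what separates them. A second deposited table, of TPM values, carries the same column names on different libraries. In 16 of 16 columns the DOX state of its header was the replicate set of the matching count column, its passage was the DOX state and its replicate set was the passage. By the TPM headers, what is called the replicate set below would thus be DOX, DOX would be passage, and passage would be the set. The count headers were used because Pkd2 fell with their DOX label, which means that Pkd2 cannot serve as an independent check. Of 13 principal cell markers, the water channel gene Aqp2, which defines that cell type, had no count in any of the 4 groups. Aqp3, Aqp4, Avpr2, Scnn1b and Scnn1g stayed between 0 and 3.82 CPM. Other markers were present in all 16 libraries: Scnn1a ran from 88.04 to 226.4 CPM, Hsd11b2 from 5.553 to 17.52 and Gata3 from 3.438 to 10.99. The list summed to between 1700 and 2120 CPM per library, most of it from the general epithelial genes Cdh1 (514 to 743 CPM) and Epcam (457 to 555) and from Tfcp2l1 (251 to 410) and Cdh16 (163 to 357). Of its 10 tested genes 1 rose and 5 fell with DOX averaged over passages, where 32.3% of all genes were called, and their part in the results below was not tested.

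Zinc inside cells is held down by the metallothioneins, small cysteine-rich proteins that bind zinc and copper, and by ZnT transporters such as Slc30a1, which carry zinc out of the cytosol. ZIP transporters such as Slc39a10 and Slc39a14 carry it in. The transcription factor MTF-1 senses free zinc and binds metal response elements in the promoters of Mt1, Mt2 and Slc30a1. Iron enters on transferrin through the receptor Tfrc, crosses the endosomal membrane through Slc11a2 (DMT1), is stored in ferritin shells of heavy (Fth1) and light (Ftl1) chains, and leaves through ferroportin (Slc40a1). Iron regulatory proteins bind hairpins called iron-responsive elements, which stabilise the Tfrc transcript when iron is scarce and hold back translation of the ferritins and ferroportin. Doxycycline, like other tetracyclines, binds divalent metal ions.

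In the annotation (GRCm38) Mt2 lies on chromosome 8 from 94172664 to 94173568 and Mt1 from 94179082 to 94180327, both on the plus strand, and Slc30a1 on chromosome 1 from 191906767 to 191913247, plus strand. The promoters of these 3 genes are shown because MTF-1 acts through them. Windows ran from 250 bases before to 50 bases after each RefSeq start (GRCm38.p6). They were searched on both strands for the core of the metal response element, TGCACNC or TGCGCNC. Every match was counted, so 2 matches that overlap on opposite strands count as 2. Of 32851 mouse promoter windows 25.7% held at least 1 match, 7.11% at least 2, 1.97% at least 3 and 0.517% at least 4. The Mt2 window held 4, the Mt1 window 3 and the Slc30a1 window 2. The 250 bases before each start follow, 5′ to 3′ on the plus strand, with matches in capitals (a match on the minus strand appears as its reverse complement).
Mt2, chr8:94172368-94172617: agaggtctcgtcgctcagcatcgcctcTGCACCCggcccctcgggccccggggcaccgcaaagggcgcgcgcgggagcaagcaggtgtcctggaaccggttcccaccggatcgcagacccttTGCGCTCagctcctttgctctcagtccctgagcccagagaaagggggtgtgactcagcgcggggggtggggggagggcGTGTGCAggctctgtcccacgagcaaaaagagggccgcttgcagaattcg
Mt1, chr8:94178839-94179088: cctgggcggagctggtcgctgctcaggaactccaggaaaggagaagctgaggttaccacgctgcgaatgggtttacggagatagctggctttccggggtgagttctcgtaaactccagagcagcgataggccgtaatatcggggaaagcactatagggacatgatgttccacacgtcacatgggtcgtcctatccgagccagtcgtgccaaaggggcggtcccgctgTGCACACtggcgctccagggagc
Slc30a1, chr1:191906531-191906780: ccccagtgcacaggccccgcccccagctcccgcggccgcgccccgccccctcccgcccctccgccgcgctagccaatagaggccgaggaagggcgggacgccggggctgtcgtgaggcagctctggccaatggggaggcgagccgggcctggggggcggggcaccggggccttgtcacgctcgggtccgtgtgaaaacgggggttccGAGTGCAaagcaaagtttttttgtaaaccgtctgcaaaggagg
The remaining matches lie within the first 50 bases after the start.
Mt2, after the start: gtcGTGCGCAggcccaggggcgtgtgctgg
Mt1, after the start: tcTGCACTCcgcccgaaaagTGCGCTCggc
Slc30a1, after the start: gccGAGCGCAgtcgccgcggacg
The Mt2 matches begin 223, 128 and 50 bases before the start and at base 5 after it. Positions count from the RefSeq starts, which differ from the gene starts given above. For Mt2 the RefSeq start lies before the annotated gene, and so does the match at base 5. In Mt1 1 match begins 23 bases before the start and 2 lie after it, at bases 3 and 21. The Slc30a1 matches lie 43 bases before the start and at base 31 after it. Tfrc has 2 annotated starts, and the window of 1 of them held 2 matches that overlap on opposite strands. No match was found for Slc39a10, Fth1 and Ftl1, and Slc39a14, Slc40a1 and Slc11a2 were not matched to the promoter table. A match describes these letters and shows no binding.

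The iron-responsive elements are shown because they divide the iron genes by how iron regulatory proteins act on them. GENCODE M21 transcripts were searched for an unpaired C, 5 paired bases, the loop CAGTGN and at least 4 of 5 pairs in the lower stem. Such a hairpin was found in 30 of 21877 protein-coding genes (0.137%), 4 of which are members. The iron importer Slc11a2 had no match. The search takes only this exact form, so a missing match does not show that a gene lacks an iron-responsive element. The loop is in capitals.
Tfrc, 3′ UTR: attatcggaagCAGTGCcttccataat
Tfrc, 3′ UTR: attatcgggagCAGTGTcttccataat
Tfrc, 3′ UTR: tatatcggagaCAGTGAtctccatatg
Tfrc, 3′ UTR: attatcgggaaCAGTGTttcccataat
Fth1, 5′ UTR: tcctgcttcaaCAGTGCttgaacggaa
Ftl1, 5′ UTR: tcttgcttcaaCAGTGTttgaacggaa
Slc40a1, 5′ UTR: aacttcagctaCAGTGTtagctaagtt
The 4 Tfrc hairpins lie between bases 3316 and 3833 of its transcript. Those of Fth1, Ftl1 and Slc40a1 begin at bases 88, 79 and 91. In poly(A) RNA counts only a change of transcript level can be seen, so translation through the 5′ hairpins was not measured.

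Levels were compared between genes per kilobase of exon, using all annotated exons of a gene. By this measure the ferritins and metallothioneins stood far above the transporters. Ftl1 had a mean of 413 CPM per kilobase over the 16 libraries (range 353 to 444), Fth1 199 (173 to 235), Mt1 157 (79.4 to 236) and Mt2 147 (65.3 to 257). The ranges of Fth1, Mt1 and Mt2 overlap, while that of Ftl1 lies above all of them. The order of these 4 genes depends on the lengths used, 1340 bases for Ftl1, 3469 for Fth1, 1246 for Mt1 and 588 for Mt2. The annotated exons of Mt1 together cover its whole gene, so its length includes introns of some transcripts. Not corrected for length, Fth1 (mean 691 CPM) stood above Ftl1 (553), and Mt1 (195) above Mt2 (86.6). Tfrc followed at 35.4 CPM per kilobase (23.0 to 51.9). The plasma membrane and endosomal carriers stood lowest, with Slc11a2 at 10.1, Slc39a10 at 9.09, Slc40a1 at 9.03, Slc39a14 at 8.83 and Slc30a1 at 5.28. The ranges of the first 4 overlap, while that of Slc30a1 (2.52 to 8.53) lies below that of Slc11a2 (8.82 to 11.8). Reads that a ferritin pseudogene could take were few: the largest, Ftl1-ps1, had 534 counts in all, 0.452% of those of Ftl1.

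**Figure D1:**
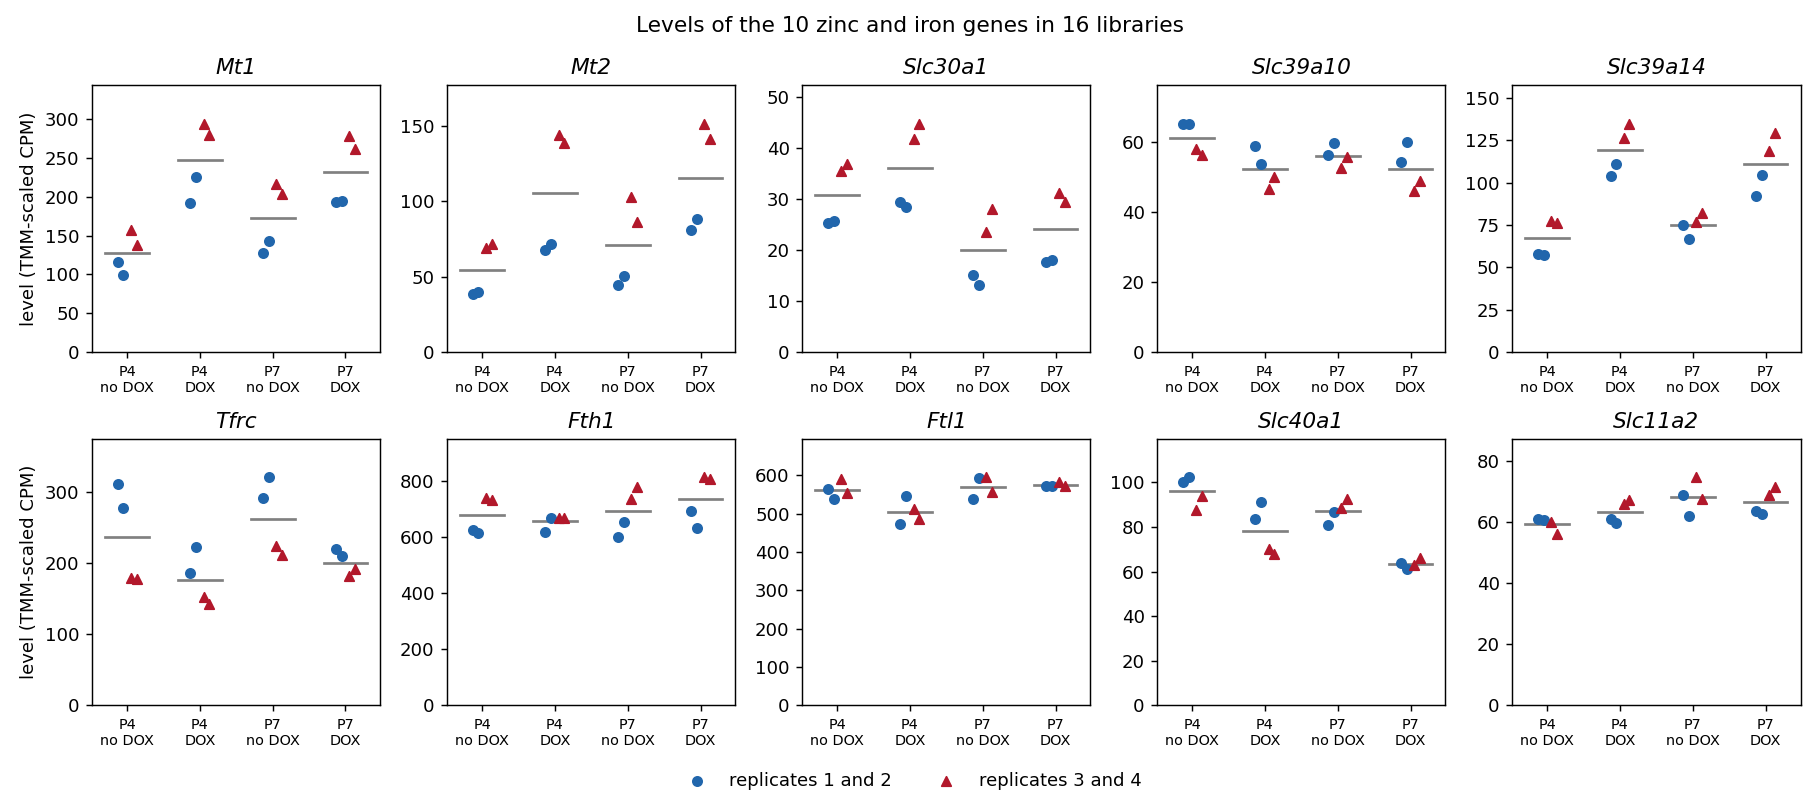
TMM-scaled CPM of each gene (vertical axis from 0) in the 4 groups, with 1 point per library, circles for replicates 1 and 2, triangles for replicates 3 and 4, and a grey line at the group mean. Slc39a14 is the gene whose 8 libraries with DOX all lie above the 8 without, and in Mt1, Mt2 and Slc30a1 the triangles lie above the circles in every group.

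With DOX, both metallothionein transcripts were higher in every comparison of libraries with the same replicate number. Mt1 stood at 116, 99.0, 158 and 138 CPM in replicates 1 to 4 of passage 4 without DOX and at 192, 225, 294 and 279 with it. The passage 4 ranges do not overlap, and the increase was 0.95 on the log2 scale (SE 0.21, adjusted p = 0.0052), a 1.94-fold rise. At passage 7 Mt1 stood at 128, 143, 216 and 204 CPM without DOX and at 194, 195, 279 and 262 with it. These ranges overlap between groups, because replicates 3 and 4 without DOX reach above replicates 1 and 2 with it. The passage 7 log2 difference was 0.43 (SE 0.21, adjusted p = 0.16), and it passed the test with the replicate number as a block (0.44, adjusted p = 3.7e-06) or the replicate set as a term. Deviations from the group mean correlated no more between libraries of equal number (0.18 to 0.37) than between others of the same set (0.18 to 0.39). The block and the same-number comparisons thus reflect the set, here and below, and not a shown pairing of single libraries. Libraries of a set may not be separate cultures, so p-values with the block may be too small. Over both passages Mt1 rose by 0.69 (SE 0.15, adjusted p = 0.0022). The response was smaller at passage 7 by 0.52 on the log2 scale, which passed with the block (adjusted p = 0.54 without it and 0.00059 with it) or the set as a term.

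Mt2 stood at 38.4, 39.4, 69.2 and 71.4 CPM at passage 4 without DOX and at 67.7, 71.7, 144 and 139 with it. At passage 7 the values were 44.4, 50.4, 103 and 86.2 CPM without DOX and 81.0, 88.0, 151 and 141 with it. The groups overlap at both passages, while within replicates 1 and 2, and within replicates 3 and 4, they do not. The log2 difference was 0.95 at passage 4 (SE 0.37, adjusted p = 0.097) and 0.71 at passage 7 (SE 0.36, adjusted p = 0.19), and with the block 0.93 (adjusted p = 4.2e-11) and 0.73 (adjusted p = 1.4e-09). Averaged over passages Mt2 rose by 0.83 (SE 0.26, adjusted p = 0.025), a 1.77-fold rise. That call was lost without any one of 6 libraries, replicates 1 and 2 of passage 4 without DOX, replicates 3 and 4 of passage 4 with DOX, replicate 2 of passage 7 without DOX and replicate 3 of passage 7 with DOX, with an adjusted p of up to 0.055. Within the replicate sets the averaged difference was 0.84 in replicates 1 and 2 and 0.82 in replicates 3 and 4. Mt1 carried 2.44 ± 0.46 times the CPM of Mt2 at passage 4 without DOX, 2.51 ± 0.57 with it, and 2.55 ± 0.38 and 2.08 ± 0.27 at passage 7 (SD, n = 4), not corrected for length.

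The zinc exporter Slc30a1 was higher with DOX in all 8 same-number comparisons. It stood at 25.3, 25.6, 35.5 and 36.7 CPM at passage 4 without DOX and at 29.5, 28.3, 41.7 and 44.7 with it. At passage 7 it stood at 15.1, 13.2, 23.5 and 27.99 CPM without DOX and at 17.5, 18.0, 31.1 and 29.4 with it. The groups overlap at both passages. The log2 difference was 0.22 at passage 4 (SE 0.26, adjusted p = 0.63), 0.29 at passage 7 (SE 0.27, adjusted p = 0.50) and 0.26 on average (SE 0.19, adjusted p = 0.33). It passed with the block, at 0.22 (adjusted p = 0.032), 0.28 (adjusted p = 0.012) and 0.25 (adjusted p = 0.00091), and also with the set as a term in all 3 comparisons.

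Slc39a14, a ZIP carrier that takes up zinc and iron not bound to transferrin, rose at both passages. It stood at 57.7, 57.3, 77.1 and 76.0 CPM at passage 4 without DOX and at 104, 111, 127 and 135 with it. At passage 7 it stood at 75.2, 66.5, 76.8 and 82.0 CPM without DOX and at 91.9, 105, 119 and 130 with it. All 8 libraries with DOX lay above all 8 without, which held for 2.57% of tested genes. The rise was 0.83 at passage 4 (SE 0.12, adjusted p = 0.00012), a 1.77-fold change, and 0.57 at passage 7 (SE 0.12, adjusted p = 0.0025). Its averaged rise was 0.70 (adjusted p = 7.8e-06), and the values within the sets were 0.69 and 0.71.

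The other zinc importer, Slc39a10, went the opposite way and moved little. It stood at 65.2, 65.2, 57.9 and 56.2 CPM at passage 4 without DOX and at 58.7, 53.6, 46.6 and 50.03 with it. At passage 7 it stood at 56.2, 59.8, 52.6 and 55.7 CPM without DOX and at 54.3, 60.0, 45.9 and 48.9 with it. It was lower with DOX in 7 of 8 same-number comparisons, and the groups overlap at both passages. The averaged fall was -0.16 on the log2 scale (SE 0.06, adjusted p = 0.047). It was lost when any of 11 libraries was left out (adjusted p of up to 0.11) and kept only without replicates 3 or 4 of passage 4 without DOX, replicate 1 of passage 4 with DOX, replicate 3 of passage 7 without DOX or replicate 2 of passage 7 with DOX. At passage 4 it was -0.23 (adjusted p = 0.081), which passed with the block (-0.23, adjusted p = 0.0039), and at passage 7 it was -0.10 (adjusted p = 0.45).

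Tfrc, which brings in transferrin-bound iron, was lower with DOX in all 8 same-number comparisons. It stood at 312, 278, 179 and 177 CPM at passage 4 without DOX and at 186, 223, 152 and 142 with it. At passage 7 it stood at 292, 321, 225 and 212 CPM without DOX and at 220, 210, 182 and 192 with it. The groups overlap at both passages, since replicates 3 and 4 without DOX lie near replicates 1 and 2 with it. The averaged fall was -0.41 on the log2 scale (SE 0.14, adjusted p = 0.042), to 0.754 of the level without DOX. It kept its call only without replicates 3 or 4 of either group without DOX or without replicate 2 of passage 4 with DOX, and was lost without each of the other 11 libraries (adjusted p of up to 0.087). The differences at passage 4 (-0.43, adjusted p = 0.18) and passage 7 (-0.39, adjusted p = 0.20) passed with the block (-0.41, adjusted p = 0.0052, and -0.36, adjusted p = 0.0086) or the set as a term. Within replicates 1 and 2 the averaged difference was -0.52 (SE 0.05), and within replicates 3 and 4 it was -0.25 (SE 0.05). The test of that difference gave 0.27 (SE 0.07, adjusted p = 0.061), against 1.55% of all genes called, and without replicate 2 of either passage 4 group or replicate 1 of passage 7 without DOX it passed (adjusted p as low as 0.0044).

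Slc11a2, the DMT1 carrier, was not called for DOX at either passage in the fit over all libraries. It stood at 60.9, 60.5, 60.1 and 56.0 CPM at passage 4 without DOX and at 61.2, 59.6, 65.8 and 67.2 with it. Its passage 7 values were 69.0, 62.1, 74.7 and 67.6 CPM without DOX and 63.6, 62.6, 68.8 and 71.4 with it. The groups overlap at both passages. The log2 difference was 0.09 at passage 4 (SE 0.07, adjusted p = 0.37) and -0.04 at passage 7 (SE 0.07, adjusted p = 0.75). At passage 4 it was -0.01 within replicates 1 and 2 (SE 0.07, adjusted p = 0.95) and 0.19 within replicates 3 and 4 (SE 0.07, adjusted p = 0.043), where 21.6% of all genes were called. Its averaged log2 difference was 0.03 (SE 0.05, adjusted p = 0.68).

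The ferritin genes moved little. Fth1 ranged from 616 to 739 CPM at passage 4 without DOX and from 618 to 670 with it, and from 602 to 778 and from 632 to 814 CPM at passage 7. Its averaged log2 difference was 0.02 (SE 0.06, adjusted p = 0.84). Ftl1 stood at 565, 538, 591 and 555 CPM at passage 4 without DOX and at 472, 546, 513 and 487 with it. These ranges overlap through replicate 2 with DOX, and the fall was -0.16 (SE 0.05, adjusted p = 0.043). That call was lost when any of 11 libraries was left out (adjusted p of up to 0.14) and kept only without replicate 2 of either passage 4 group or replicates 1, 2 or 3 of passage 7 without DOX. At passage 7 the Ftl1 means were 570 ± 28.1 CPM without DOX and 575 ± 5.50 with it (SD, n = 4), a log2 difference of 0.01 (adjusted p = 0.91). The ratio of Fth1 to Ftl1 CPM had group means between 1.20 and 1.30, with SDs of 0.06 to 0.15.

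The iron exporter Slc40a1 fell with DOX at both passages. It stood at 100, 102, 87.8 and 93.8 CPM at passage 4 without DOX and at 83.6, 91.2, 70.2 and 67.7 with it. At passage 7 it stood at 81.1, 86.7, 88.4 and 92.7 CPM without DOX and at 63.8, 61.3, 63.0 and 66.3 with it. The passage 7 groups do not overlap, and at passage 4 replicate 2 with DOX lies above replicate 3 without. The fall was -0.29 at passage 4 (SE 0.08, adjusted p = 0.016) and -0.45 at passage 7 (SE 0.08, adjusted p = 0.00046), to 0.730 of the level without DOX. The passage 4 call was lost without replicate 2 of the group without DOX or without replicate 3 or 4 of the group with DOX (adjusted p of up to 0.063). Ferroportin is also a gene of macrophages, and the tested leukocyte markers were also lower with DOX. Of 15 leukocyte markers 4 were tested, and all 4 were lower with DOX on average (Ptprc -2.70, Cd68 -0.85, Csf1r -0.68 and Cd14 -0.48 on the log2 scale), where 32.3% of all genes were called. At passage 7 against 4 without DOX, 2 of them were higher and 1 lower (25.6% of all genes called), and Slc40a1 was not called (-0.14, adjusted p = 0.23). With DOX, 2 were higher and 2 lower at passage 7 (34.1%), and Slc40a1 was lower (-0.30). The list summed to 170 to 189 CPM without and 124 to 167 with DOX at passage 4, and to 194 to 209 and 114 to 128 CPM at passage 7. Most of it came from Cd14 (73.7 to 142 CPM). All libraries come from 1 collecting duct line. The defining markers Adgre1, Tyrobp, C1qa, C1qb, C1qc, Itgam and Cd163 were at 0 in all groups, and the part of such cells in the result was not tested. In bulk RNA, fewer cells of a type and less RNA per cell cannot be told apart.

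Counted over the 10 genes, DOX at passage 4 raised 2 (Mt1 and Slc39a14) and lowered 2 (Slc40a1 and Ftl1), where 17.5% of all tested genes were called. At passage 7 it raised Slc39a14 and lowered Slc40a1, against 22.6% of all genes. Averaged over passages it raised 3 (Mt1, Mt2 and Slc39a14) and lowered 3 (Slc39a10, Tfrc and Slc40a1), against 32.3% of all genes. With the replicate number as a block the counts were 4 higher and 4 lower at passage 4 (27.3% of all genes called), 4 and 2 at passage 7 (31.7%) and 4 and 3 on average (41.9%). The direction was the same in all 8 same-number comparisons for 4 genes that were higher (11.5% of all genes) and 2 that were lower (12.8%). The ranges of the groups did not overlap for 2 of the 10 genes at passage 4 (Mt1 and Slc39a14, 21.3% of all genes) and for 2 at passage 7 (Slc39a14 and Slc40a1, 25.2%). The median log2 difference of the 10 genes was 0.02 at passage 4 and 0.05 at passage 7, with all genes at 0.00 and -0.01. No gene of the 10 passed the test of a difference in DOX response between passages by edgeR, nor by DESeq2, against 1.19% of all genes. By edgeR's test at an unadjusted p under 0.05 there was 1 gene, Ftl1 (difference 0.17, adjusted p = 0.37), and with the block Mt1 was called (4.67% of all genes).

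**Figure D2:**
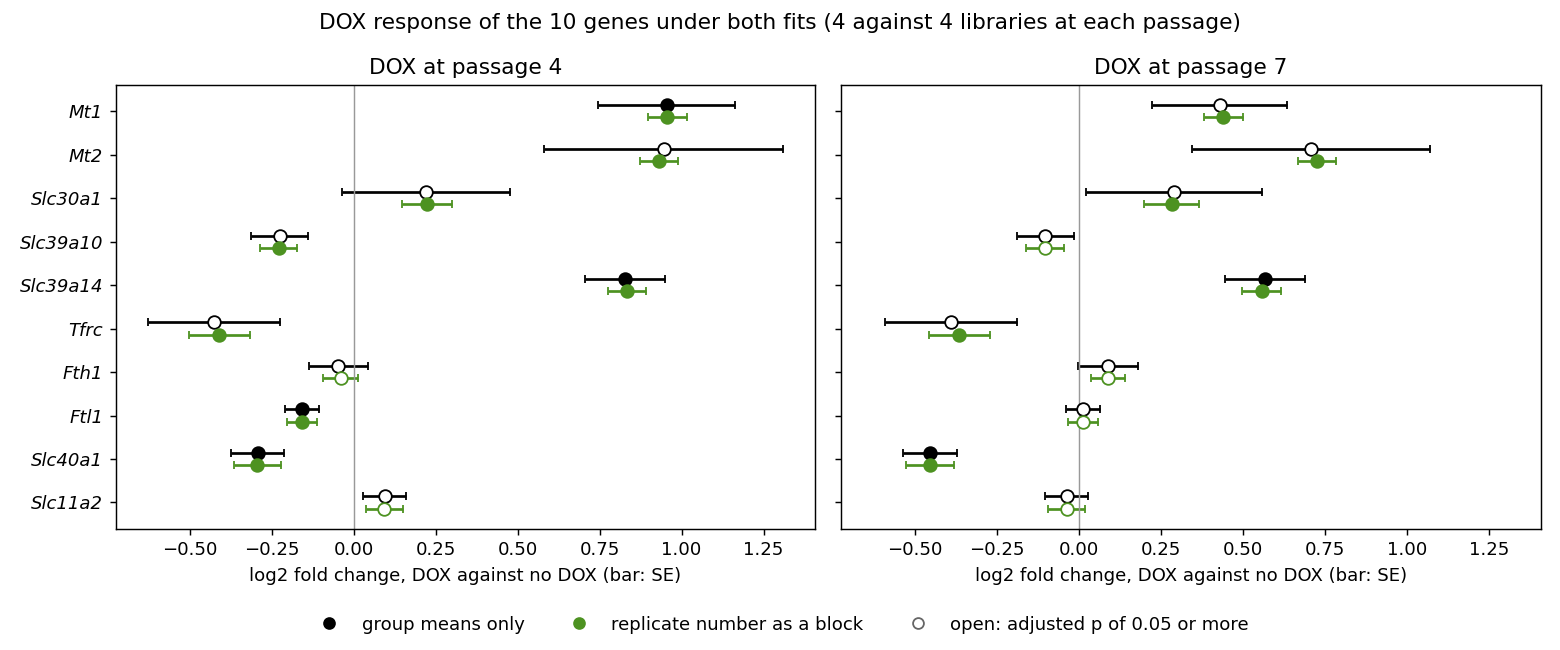
Log2 fold change with DOX (horizontal axis, bars are SE) at each passage for the 10 genes, 4 libraries against 4, from the fit with group means only (black) and with the replicate number as a block (green), filled where the adjusted p was under 0.05. The points of both fits nearly coincide while the bars shorten with the block, most for Mt2 and Slc30a1.

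Between passages without DOX, 1 of the 10 genes passed, against 25.6% of all genes. Slc11a2 stood at 59.4 ± 2.26 CPM at passage 4 and 68.4 ± 5.17 at passage 7 (SD, n = 4), a rise of 0.20 (SE 0.07, adjusted p = 0.029). The ranges do not overlap for this gene alone among the 10 (26.9% of all genes), and the call was lost without replicate 4 of passage 4 or replicates 1 or 3 of passage 7 (adjusted p of up to 0.12). With the block 4 genes were higher and 1 lower (37% of all genes called). Slc30a1 was the lower gene, at 30.8 ± 6.16 CPM at passage 4 and 20.0 ± 6.99 at passage 7, a log2 difference of -0.64 (adjusted p = 0.095, and -0.65 with the block). Mt1 (0.42), Mt2 (0.36) and Slc39a14 (0.17, adjusted p = 0.026) joined Slc11a2 as higher with the block. The metallothioneins and the exporter Slc30a1, which moved the same way with DOX, thus had opposite signs between passages.

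With DOX present, Ftl1 was higher at passage 7 by 0.19 (SE 0.05, adjusted p = 0.0088) and Slc40a1 lower by -0.30 (SE 0.08, adjusted p = 0.0082), against 34.1% of all genes called. The ranges of these 2 genes do not overlap between passages, as in 32.4% of all genes. Mt1 stood at 248 ± 47.7 CPM at passage 4 and 233 ± 44.4 at passage 7 with DOX (SD, n = 4), with overlapping ranges and a log2 difference of -0.09 (adjusted p = 0.78). Slc30a1 was -0.57 (adjusted p = 0.10), which passed with the block (-0.60). The block also called Mt2 (0.16, adjusted p = 0.027) and Fth1 (0.16, adjusted p = 0.018), for 3 higher and 2 lower, against 44.7% of all genes. These comparisons share their groups with the DOX comparisons above.

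Replicates 3 and 4 differed from replicates 1 and 2 in 7 of the 10 genes with group held constant, where 36.9% of all genes differed. The sets were recognised from these same libraries, so the values describe them. Mt2 was higher in replicates 3 and 4 by 0.92 (SE 0.04), Slc30a1 by 0.66 (SE 0.06), Mt1 by 0.51 (SE 0.04), Slc39a14 by 0.30 (SE 0.04) and Fth1 by 0.22 (SE 0.04). Tfrc was lower by -0.47 (SE 0.06) and Slc39a10 by -0.20 (SE 0.04). For Mt1, Mt2, Slc30a1, Slc39a14 and Fth1 both libraries of replicates 3 and 4 lay above both of replicates 1 and 2 in all 4 groups, as did 6.1% of all genes. Tfrc and Slc39a10 lay below in all 4 groups, as did 8.75%. Ftl1 (0.02), Slc40a1 (-0.09) and Slc11a2 (0.09) were not called.

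The sizes can be set beside the DOX response. Mt2 in replicates 3 and 4 had 1.81, 2.03, 2.00 and 1.73 times its mean level in replicates 1 and 2, in passage 4 without and with DOX and passage 7 without and with DOX. For Slc30a1 the ratios were 1.42, 1.495, 1.82 and 1.70. For Tfrc they were 0.603, 0.720, 0.713 and 0.868. The log2 set difference was 0.92 for Mt2 beside an averaged DOX difference of 0.83, and 0.66 for Slc30a1 beside 0.26; set and DOX differences were not tested against each other. The difference of the DOX response between sets passed for none of the 10 genes by edgeR or DESeq2, with 1 gene, Tfrc, under an unadjusted p of 0.05. Tfrc was called there with no filter on low counts and with upper-quartile scaling.

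**Figure D3:**
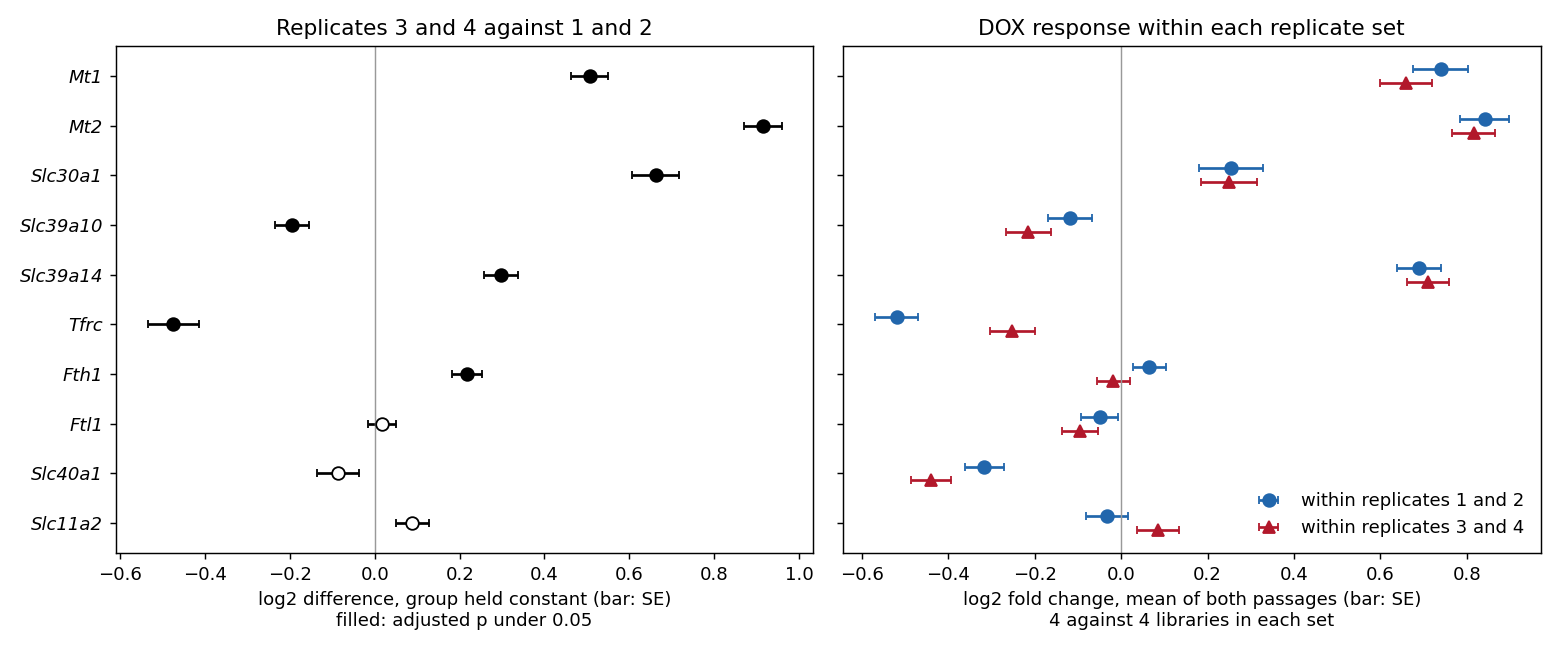
Left, log2 difference between replicates 3 and 4 and replicates 1 and 2 with group held constant (8 libraries against 8). Right, log2 fold change with DOX averaged over passages within each set (4 libraries against 4), where the sets lie close together for most genes and apart for Tfrc, at -0.52 and -0.25. Bars are SE on both axes.

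Beyond the 10 genes, 99 other genes of zinc, iron, haem and copper handling were listed, of which 82 were tested. Averaged over passages 12 rose and 17 fell with DOX, 35.4% against 32.3% of all genes, with a median log2 difference of -0.03. With the block 18 rose and 22 fell, where 41.9% of all genes were called. In the ZnT family, members of the 10 included, 1 of 7 tested genes rose and 1 fell: Slc30a4 by 0.16 and Slc30a7 by -0.32. In the ZIP family 2 of 13 rose and 4 fell. Slc39a11 rose by 0.25, and Slc39a6 and Slc39a13 fell by 0.21 and 0.18. Slc39a4, the zinc carrier affected in acrodermatitis enteropathica, fell from 2.37 ± 0.56 to 1.31 ± 0.32 CPM at passage 4 and from 9.10 ± 1.82 to 4.33 ± 0.57 at passage 7 (SD, n = 4), by -0.97 on average (adjusted p = 5.8e-05). The transcription factor genes Mtf1 (-0.04, adjusted p = 0.72) and Mtf2 (-0.01, adjusted p = 0.91) were not called for averaged DOX. Between the replicate sets both were called, with less transcript in the set where Mt1 and Mt2 had more (36.9% of all genes called). In passage 4 with DOX Mtf1 went the other way, at 34.64 and 35.39 CPM against 32.8 and 33.98. Mtf1 was also called lower at passage 7 than at passage 4, without DOX (25.6% of all genes called) and with it (34.1%). What these changes mean for the metallothioneins was not tested.

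Among 9 tested iron uptake genes 3 rose and 3 fell, where 32.3% of all genes were called. Lcn2, a protein that binds iron-loaded siderophores, rose by 0.57 (adjusted p = 0.0025), and its receptor gene Slc22a17 fell by -0.58 (adjusted p = 0.0019). Of the STEAP metalloreductases, Steap2 fell by -0.34 and Steap1 rose by 0.30. The Steap1 responses differed between passages (0.76, adjusted p = 0.019), with 55.3 and 52.6 CPM at passage 4 and 46.0 and 73.7 at passage 7, without and with DOX. In iron storage and export, 1 of 7 rose and 2 fell: the iron chaperone gene Pcbp1 by 0.15, the ferroxidase gene Cp by -0.42 (1098 and 866 CPM at passage 4) and Slc40a1. Among 6 iron-sensing genes Hif1a rose by 0.33 and the iron regulatory protein gene Aco1 fell by -0.14, a call lost in 8 of 16 fits that left out 1 library (adjusted p of up to 0.074). Ireb2, which encodes the other iron regulatory protein, was not called (-0.09, adjusted p = 0.21). Of 8 tested genes listed as having iron-responsive elements, not taken from the search above, Cdc42bpa rose by 0.19, and Tfrc and Slc40a1 fell.

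Among regulators of the iron hormone hepcidin, 1 of 8 tested genes rose (Neo1, 0.15) and 3 fell, where 32.3% of all genes were called. Hamp, the hepcidin gene itself, had too few counts to be tested. Tmprss6 encodes a membrane protease that cleaves a co-receptor acting upstream of hepcidin. Its transcript fell from 5.22 ± 1.20 to 0.295 ± 0.161 CPM at passage 4 and from 16.8 ± 4.23 to 2.24 ± 0.53 at passage 7 (SD, n = 4), by -3.46 on average (adjusted p = 2.6e-10). Bmp6 fell by -0.99 (adjusted p = 3.6e-05) and Smad6 by -0.39. Of 30 tested mitochondrial iron, haem and iron-sulphur genes 4 rose and 5 fell, near the share of 32.3% over all genes. The haem synthesis genes Cpox (0.44) and Alad (0.31) and the iron-sulphur assembly genes Lyrm4 (0.37) and Glrx5 (0.13) rose. Hmox1 (-0.34), Hmox2 (-0.17), Blvra (-0.18) and Fech (-0.17) fell. The responses of Hmox1, the inducible haem oxygenase, differed between passages by 0.61 (adjusted p = 0.0084): it fell from 73.0 to 46.7 CPM at passage 4 and stood at 59.3 and 58.1 at passage 7. Cpox differed by 0.42 (adjusted p = 0.012). Of 8 copper genes only Slc31a2 was called, lower by -0.48, against 32.3% of all genes.

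**Figure D4:**
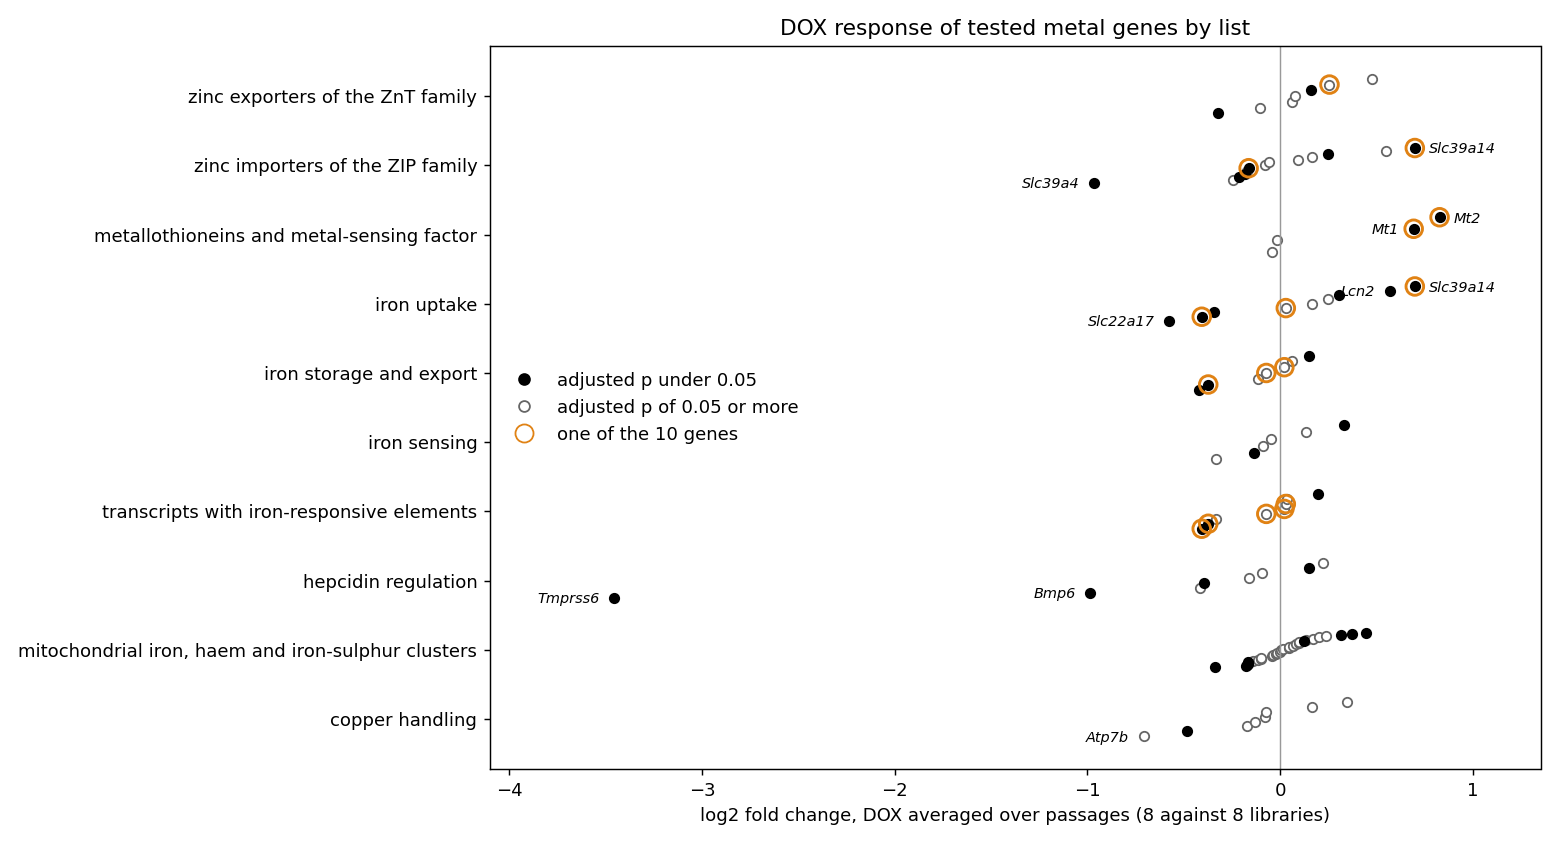
Log2 fold change with DOX averaged over passages (8 libraries against 8) for each tested gene of the 10 lists, filled where the adjusted p was under 0.05, with the 10 genes ringed in orange; a gene on 2 lists appears in both. Most points lie between -0.5 and 0.5, and Tmprss6 at -3.46 lies farthest out.

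Between passages without DOX, 16 of the 82 other metal genes were higher at passage 7 and 14 lower, 36.6% against 25.6% of all genes. Slc39a4 (1.93), Tmprss6 (1.69) and Cpox (0.40) were the higher genes with the smallest adjusted p, and Aco1 (-0.32), Slc30a5 (-0.23) and Alas1 (-0.26) the lower ones. Slc39a4 and Tmprss6 were thus higher with passage and lower with DOX, which compare partly the same libraries.

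Across the 16 libraries the levels of the 10 genes formed a pattern that follows the values above, given as a description since the libraries share groups and sets. Mt1 and Mt2 had a Pearson correlation of log2 CPM of 0.944, Mt1 and Slc39a14 of 0.917, and Mt2 and Slc39a10 of -0.899. Tfrc ran against Mt2 (-0.812) and Slc30a1 (-0.799). Slc30a1 and Slc40a1 had a correlation near 0 (-0.00), and Ftl1 correlated with Fth1 at 0.457. Among all tested genes with a proper symbol, Arl4d was most like Mt1 (0.959), Slc35e4 most like Mt2 (0.954), Ric8a most like Slc30a1 (0.957) and Pcnx4 most like Slc39a10 (0.911). Chka was most like Slc39a14 (0.975), Stag2 most like Tfrc (0.946) and Tspan13 most like Slc40a1 (0.973). Zfpl1 was most like Fth1 (0.936) and Pigx most like Slc11a2 (0.873). Dtnb and Slc35e4 were among the 3 genes most like both Mt1 and Mt2.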

How the data were processed

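RNA-seq was measured in 16 libraries, and the depth was 9937504 to 17188295 counts per library. Poly(A) RNA was made into strand-marking libraries, read as pairs of 75 bp reads and aligned by the authors to GRCm38.p6 using STAR 2.6.0c, per the labels' protocols. The authors deposited raw counts per gene and a second table of TPM values; the counting tool and its strand setting are not given in the sources used here. The deposited TPM columns match count columns of other names in 12 of 16 cases, so no TPM value is reported. Genes were named by identifier from GENCODE M21 for all 55536 genes.

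Counts were filtered by filterByExpr (15316 genes kept) and scaled by TMM. All 16 libraries were fitted together with 1 mean per group using the robust quasi-likelihood fit of edgeR 4.0.16 (12 residual degrees of freedom, R 4.3.3). Adjusted p-values are Benjamini-Hochberg over all tested genes, with a threshold of 0.05, and 8 contrasts were tested. The replicate set was tested with group held constant, and its interaction with DOX in 8 cells of 2 libraries. Deviations from the group mean were correlated between libraries of equal replicate number (0.18 to 0.37), every pair above 0.1. The number was therefore also fitted as a block, and that fit is given wherever it changes a call. Correlations were 0.18 to 0.39 for other numbers of the same set and -0.34 to -0.18 between sets, so the block is finer than the values show. No replicates were duplicates, with a chi-square per degree of freedom of 1.87 to 4.65 within a set and 10.4 to 19 between sets. Libraries of the same set were thus much closer to each other, and whether they are separate cultures is not labelled. The steps were tested on simulated data. Alternatives were DESeq2 1.42.0, other scalings, no filter, a fit without robust estimation, only the groups compared, the set as a term and leaving out each library.

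The members and lists were chosen with earlier results of these data known. All 10 members are named. Each list contributes up to 4 called genes per direction, ranked by the adjusted p of averaged DOX, with those whose response differed between passages, and up to 3 in each direction over all lists for passage without DOX. For each member the 3 genes with the highest Pearson correlation of log2 CPM (prior count 2) were found. Further genes named (Mtf1, Mtf2, Ireb2, Hamp, Atp7b in a plot and the leukocyte markers) were chosen after their values were seen. The gene most like Ftl1 is not reported here. The symbol Hjv was not matched.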

Additional observations from a re-analysis of the deposited data

Results flagged for a closer look

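In 40 groups of 4 libraries (10 genes by 4 groups) the gap of the highest or lowest library to its nearest neighbour was divided by the group's range, and 3 groups exceeded Dixon's 95% critical value for 4 libraries. Chance alone passes about 1 group in 20. Fth1 in replicate 1 of passage 4 with DOX stood at 618 CPM against 669 to 670 in the other libraries, a ratio of 0.988. Ftl1 in replicate 3 of passage 7 with DOX stood at 583 CPM against 571 to 573, a ratio of 0.897. Slc11a2 in replicate 4 of passage 4 without DOX stood at 56.0 CPM against 60.1 to 60.9, a ratio of 0.832. Without that last library the rise of Slc11a2 between passages was no longer called, as was the case without 2 others.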

How the results depend on the processing

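With the replicate number as a block, 4 members were higher and 4 lower for DOX at passage 4, and 4 and 2 at passage 7. The counts were 0 and 1 for the difference between passages, 4 and 1 for passage without DOX and 3 and 2 for passage with DOX. In all, 4176 genes were called at passage 4 and 715 for the difference. The replicate set as a term gave the same member counts except 2 lower for the difference (4354 and 821 genes), and so did DESeq2 with the set as a term, chosen after seeing the data (4155 and 934 genes). Only 9 of 16 libraries correlated best with a library of their own number. DESeq2 without the set called 349 genes for the difference, against 183 by edgeR. With no filter on low counts 1 member was lower at passage 4 and 1 on average, 0 were higher for passage without DOX, and 1 (Tfrc) was higher for the difference between sets, where 475 genes were called against 238; upper-quartile scaling also called that 1. With only the 2 groups compared, 0 members were lower at passage 4. The cause of these changes was not tested.

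Leaving out each library in turn gave 0 to 2 members lower at passage 4, 2 to 3 higher and 1 to 3 lower on average, 0 to 1 higher and 0 to 1 lower for passage without DOX, and 0 to 1 higher for the difference between sets. The calls for the difference between passages ranged from 106 to 230 genes, lowest without replicate 1 of passage 4 with DOX, and those between sets from 120 to 514. No member reversed its direction under any alternative where it was called. Slc39a14 (both passages), Mt1 (passage 4 and average), Slc40a1 (passage 7 and average) and the 7 set differences kept their calls without any one library. Of 28 other metal genes named for averaged DOX, 3 lost their call without at least 1 library (Aco1 and Cdc42bpa without 8, Glrx5 without 2, adjusted p of up to 0.074). Depth was 9937504 counts or more per library; the biological coefficient of variation was 10% over groups and 6.05% once the set was held constant.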
